A study of Mus musculus with 4 samples.

Results

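Cluster 4 of the finer clustering of sorted mouse brain microglia held 8129 of 74758 cells. Its members were chosen by the cluster number that the authors deposited for each cell at a resolution of 0.4. The label of a cycling subtype was checked against Mcm5, a subunit of the replicative helicase, and Top2a, the topoisomerase that untangles replicated DNA. A further cycling cluster at the same resolution, cluster 7, held 2990 cells and served as the closest comparison. Cluster 4 carried the transcripts of DNA licensing and synthesis at about the level of cluster 7, but little of several mitotic transcripts. Mice given ATV:4D9 supplied 5291 (WT) and 2739 (AppSAA) of its cells.

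ATV:4D9 is an antibody that activates the mouse microglial receptor TREM2 and that also binds the transferrin receptor (TfR), which carries it across the blood–brain barrier. 4D9 lacks the TfR binding, and ATV:ISO has the TfR binding with an isotype control in place of 4D9. All 20 mice were homozygous for a human TfR knock-in (hTfR KI HOM), which the ATV needs in order to bind. AppSAA mice were in addition homozygous for APP-SAA, a knock-in of the App gene with mutations that cause amyloid deposition, and WT mice were not. The 5 groups of 4 mice were WT ATV:ISO, WT ATV:4D9, AppSAA ATV:ISO, AppSAA 4D9 and AppSAA ATV:4D9, and each was sampled 1 day after a single intravenous dose of 10 mg kg−1. The AppSAA mice were male and 8 months old, and whether that entry covers the WT mice is unclear. 1 WT ATV:ISO mouse was recorded as female and the other 19 as male. The isotype arm is labelled DNP02 and was read as ATV:ISO, which no label states. Cells were sorted for CD11b, with CD45 named in 1 of the descriptions. The dissected tissue is given either as cortex or as cortex with hippocampus. The sort limits every share below to sorted cells.

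Between 2193 and 6126 cells were kept per mouse, with 17150296 to 102446549 UMIs (unique molecular identifiers, counted transcripts). The 8 mice given ATV:4D9 held 304 to 1451 cells of cluster 4 each, with 6010322 to 27387835 UMIs, and 164 to 468 cells of cluster 7. The other 12 mice held at most 19 cells of cluster 4. Each of 4 pools contained 1 mouse of every group, numbered here as replicates 1 to 4. Among all cells, 543 cell barcodes occurred in more than 1 pool, and 113 cells of cluster 4 carried such a barcode.

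A dividing cell first loads the MCM helicase onto its origins in G1, a step called licensing, with Cdc6 and Cdt1 as loaders. Cyclins E and Cdk2 then drive entry into S phase, E2F transcription factors switch on the enzymes of DNA synthesis, and histones are made to package the copies. Genes for chromosome condensation and segregation, among them cyclin B, rise later, towards G2 and mitosis. Microglia are long-lived brain macrophages that rarely divide in the healthy adult brain but can proliferate when activated. E2F-driven genes often carry E2F words near their start sites. Mitotic genes often carry a CHR element (cell cycle genes homology region) with CCAAT boxes bound by NF-Y.

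The promoter stretches of 2 licensing genes and 2 mitotic genes are shown because the cluster is set apart by these 2 kinds of gene. Each runs from 150 to 1 bases before the RefSeq start site on the gene's strand in GRCm38.p6. Capitals mark E2F words (TTTCCCGC, TTTCGCGC, TTTGCCGC or TTTGGCGC), the CHR word (TTTGAA) and the NF-Y word (CCAAT), each searched on both strands, and words may overlap.
Mcm5, chr8:75109359-75109508, plus strand: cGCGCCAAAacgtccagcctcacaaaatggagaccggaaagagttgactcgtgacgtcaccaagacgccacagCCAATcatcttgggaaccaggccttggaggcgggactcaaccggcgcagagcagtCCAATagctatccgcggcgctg
Mcm6, chr1:128359706-128359855, minus strand: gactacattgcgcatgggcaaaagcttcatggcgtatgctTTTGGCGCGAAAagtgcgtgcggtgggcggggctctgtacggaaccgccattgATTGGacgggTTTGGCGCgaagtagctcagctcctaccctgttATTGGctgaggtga
Top2a, chr11:99024190-99024339, minus strand: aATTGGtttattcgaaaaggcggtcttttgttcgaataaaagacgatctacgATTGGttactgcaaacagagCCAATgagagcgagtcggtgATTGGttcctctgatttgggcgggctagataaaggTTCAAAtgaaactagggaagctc
Mki67, chr7:135716380-135716529, minus strand: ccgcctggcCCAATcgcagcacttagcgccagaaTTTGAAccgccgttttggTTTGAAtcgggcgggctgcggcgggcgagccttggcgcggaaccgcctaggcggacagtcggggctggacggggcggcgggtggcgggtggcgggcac

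In windows of 300 bases around the start site, an E2F word stood in 2.26% of 32851 promoters. Of the licensing list 8 of 18 windows held one (44.4%), of the list of G1/S cyclins and E2F factors 8 of 18 (44.4%), of DNA synthesis 10 of 30 (33.3%) and of S phase repair 3 of 13 (23.1%). The mitosis list held it in 3 of 49 windows (6.12%), and the nucleotide synthesis list in 0 of 19. The CHR word was most frequent in the mitosis list, with 37 of 49 windows (75.5%) against 17.9% of all promoters and 6 of 18 licensing windows (33.3%). CCAAT stood in 77.6% of the mitosis windows, 72.2% of the licensing windows and 37.4% of all. The windows came from 15 of 20 licensing genes, 14 of 20 G1/S genes, 25 of 30 of DNA synthesis, 12 of 18 of repair, 16 of 17 of nucleotide synthesis and 46 of 52 of mitosis, and 0 of 18 histone genes were matched. A match is a run of letters and not a shown binding site. Of the 142 genes that stood above the other cells (below), 112 had a promoter in the table, and 23.3% of their 129 windows held an E2F word.

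Mcm5 was found in most cells of the cluster. At their own depth, 93.2% of cluster 4 cells of WT ATV:4D9 mice and 93.7% of those of AppSAA ATV:4D9 mice had an Mcm5 UMI. With cells thinned to 5000 UMIs and shallower cells left out, the shares were 62.6% ± 2.04 and 61.9% ± 2.51 (SD, n = 4 each). In cluster 7 they were 56.9% ± 1.52 and 50.5% ± 2.01. Cluster 0, where the licensing genes summed to 250 CPM (UMIs scaled to a common total per sum) against 2167 in cluster 4, had 6.15% ± 2.04 in the WT mice, at a median of 7462 UMIs per cell against 16526 in cluster 4. Top2a had a thinned share of 50.8% ± 1.81 in cluster 4 of WT mice and 55.4% in AppSAA mice, against 94.4% ± 1.07 and 93.4% in cluster 7 and 1.83% ± 1.05 in cluster 0 of WT mice. For Mcm5 other clusters of WT mice came closer, with thinned shares of 47.1% in cluster 8, 39.5% in cluster 1 and 38.0% in cluster 5, and for Top2a these had at most 28.2%. Cluster 4 was above all 3 for both markers, and Top2a was in a larger share of cluster 7.

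Markers of microglia dominated the cluster. The 6 microglial markers, among them P2ry12, Tmem119, Cx3cr1, Csf1r and Trem2, summed to 13795 to 17369 CPM over the 8 mice. The 6 markers of border macrophages summed to 9.05 to 33.8 CPM, the 5 of monocytes to 4.02 to 9.15, the 5 of neutrophils to 3.72 to 15.6, the 8 of lymphocytes to 18.4 to 27.9 and the 5 of neurons to 0.404 to 0.803. The 5 astrocyte markers summed to 56.2 to 83.5 CPM, the 6 of oligodendrocytes to 15.8 to 37.6 (with 1 gene at 0) and the 7 of endothelial and mural cells to 9.06 to 14.3. In 0 of 8129 cells did another type's list outweigh the microglial list.

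Cells of cluster 4 were larger libraries than other cells of the same mice and smaller than those of cluster 7. UMIs, genes and mitochondrial share per cell come from the counts that set the clusters, so their p-values are no independent test. The mean of the 8 per-mouse medians was 17707 UMIs ± 1932 (SD, n = 8) in cluster 4, 14706 ± 1276 in the other cells and 20391 ± 1822 in cluster 7. Cluster 4 lay above the other cells in 8 of 8 mice and below cluster 7 in 8 of 8 (exact sign flips, two-sided, p = 0.00781 each, the smallest possible with 8 mice, adjusted p = 0.0117 over 6 comparisons). Genes per cell followed, at 4439 ± 215, 3795 ± 216 and 4823 ± 190. At 5000 UMIs per cell the gap narrowed to 2138 ± 49.2 genes in cluster 4, 2021 ± 68.3 in other cells and 2172 ± 50.9 in cluster 7. Cells below that depth were left out. The thinned values differed in 8 of 8 mice from the other cells and in 7 of 8 from cluster 7 (exact sign flips, adjusted p = 0.0156 and 0.0234), a depth chosen after the data were seen. The mitochondrial share was 1.52% ± 0.367 in cluster 4, against 1.58% ± 0.387 in other cells (lower in 7 of 8 mice, exact sign flips, adjusted p = 0.0281) and 1.60% ± 0.366 in cluster 7 (lower in 6 of 8, adjusted p = 0.0547). The call against other cells was lost without pool 1, 3 or 4, where the difference was -0.0668, -0.0403 and -0.0569 percentage points.

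The share of cluster 4 was the largest in WT mice given ATV:4D9. Their 4 mice had 32.2%, 33.4%, 37.1% and 31.4% of cells in the cluster. The AppSAA ATV:4D9 mice had 17.4%, 14.8%, 12.6% and 18.9%, all below the WT mice. In the 3 groups without ATV:4D9 every mouse was under 1%. WT ATV:ISO mice had 0.182%, 0.0406%, 0% and 0.0669%. A count of 0 in the third of these, with 2210 cells, allows a share of up to 0.136%. AppSAA ATV:ISO mice had 0.317%, 0.315%, 0.310% and 0.274%, and AppSAA 4D9 mice 0.291%, 0.171%, 0.268% and 0.306%.

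**Figure D1:**
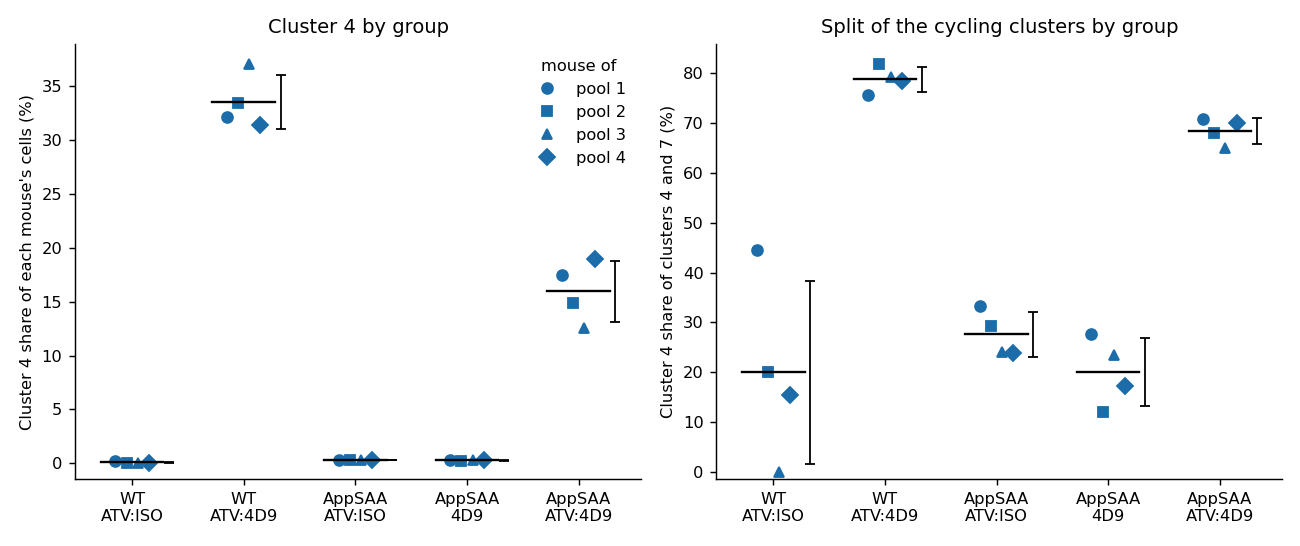
Each point is 1 mouse, its shape is the pool, the line is the mean of 4 mice and the bar its SD. The left axis is the percentage of a mouse's cells in cluster 4, highest in WT ATV:4D9 mice (33.5% ± 2.52), and the right axis is the percentage of the cells of clusters 4 and 7 that lay in cluster 4, where both ATV:4D9 groups stand above all other mice.

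The question of these contrasts was which antibody and genotype filled the cluster. The mean share was 33.5% ± 2.52 (SD, n = 4) under ATV:4D9 against 0.0725% ± 0.0783 under ATV:ISO in WT mice. In AppSAA mice it was 15.96% ± 2.81 under ATV:4D9, 0.304% ± 0.0202 under ATV:ISO and 0.259% ± 0.0610 under 4D9. The difference between AppSAA and WT mice under ATV:4D9 was -17.5 percentage points, and it was -14.7, -18.5, -24.5 and -12.4 within pools 1 to 4. The groups did not overlap in 5 of 6 contrasts, each at the smallest p that 4 against 4 mice allow (exact permutation test, two-sided, p = 0.0286, adjusted p = 0.0343 over 6). AppSAA against WT under ATV:ISO rests on 0 to 19 cells per mouse and lost its call without any AppSAA mouse (difference 0.227 to 0.242, adjusted p = 0.0686 by the exact test). 4D9 against ATV:ISO in AppSAA mice differed by -0.0451 percentage points with overlapping mice (exact permutation test, p = 0.171), and by -0.0156 without AppSAA 4D9 mouse 2. With pools as pairs no contrast could pass, because exact sign flips of 4 pairs cannot go below p = 0.125 (adjusted p = 0.15). A cell's cluster was set from its cell cycle genes among others, so the share reads those genes too.

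How the cycling cells were split between the clusters also differed. Of the cells in clusters 4 and 7, cluster 4 held 75.6%, 81.8%, 79.3% and 78.4% in the WT ATV:4D9 mice. In AppSAA ATV:4D9 mice it held 70.8%, 68.1%, 65.0% and 70.0%, so the groups did not overlap. The difference was -10.3 percentage points (means 68.5% ± 2.60 and 78.8% ± 2.54, exact permutation test, p = 0.0286, and p = 0.125 with pools as pairs, the smallest each allows). Without ATV:4D9, cluster 7 was the larger of the 2 in every mouse. There the split stood at 19.96% ± 18.4 in WT ATV:ISO mice, which had 5 to 13 cells in both clusters together, 27.6% ± 4.57 in AppSAA ATV:ISO mice and 20.1% ± 6.85 in AppSAA 4D9 mice. ATV:4D9 stood above ATV:ISO by 58.8 percentage points in WT mice, and above ATV:ISO and 4D9 by 40.8 and 48.4 in AppSAA mice (exact permutation test, p = 0.0286 each, adjusted p = 0.0286 over 4, contrasts chosen after the data were seen).

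Gene levels were then compared within the 8 mice given ATV:4D9, on UMIs summed per mouse. Because the clusters were made from the expression of the same cells, what follows between clusters is a description without a test. A gene was counted as past the fold where the fitted change was at least 2-fold (1 on the log2 scale) and its direction was the same in all 8 mice, so the change in a single mouse can be smaller. Against all other cells, 142 of 12740 genes were higher (1.11%) and 191 lower (1.5%), with a median log2 change of -0.02 over all genes. With 304 cells drawn per mouse from each class, 113 were lower. Against cluster 7, 9 of 11522 genes were higher (0.0781%) and 349 lower (3.03%), with a median of 0.01. Past the fold, cluster 4 thus differed from cluster 7 almost wholly by genes that were lower.

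The genes for licensing of replication were all above the other cells. All 20 had a positive log2 change, 7 were past the fold, and the median was 0.96. Cdc6, the loader of the helicase, had 54.1, 62.5, 56.7 and 52.4 CPM in cluster 4 of WT mice 1 to 4 and 51.7, 63.8, 48.9 and 51.1 in AppSAA mice. In the other cells of the same mice it had 17.3 to 20 and 10.4 to 13.3 CPM, with no overlap. The log2 change of Cdc6 was 1.77 ± 0.07 (SE). Mcm10 (1.56), Cdc45 (1.304), Orc1 (1.296), Gins3 (1.11), Gmnn (1.05), the inhibitor of relicensing, and Mcm7 (1.01) were also past the fold. Of genes outside the list, the cell cycle transcription factor Mybl2 (1.80 ± 0.08), Aunip (1.79 ± 0.07), which acts in repair and at the spindle, and the kinase Pask (1.56 ± 0.08) were among the 10 largest rises. The subunits Mcm2 to Mcm6 were between 0.78 and 0.95. Dbf4, which activates the Cdc7 kinase that fires origins, was least changed at 0.17.

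Mcm5 itself (gene on chromosome 8, 75109569 to 75128439 in GRCm38) had 214, 187, 203 and 199 CPM in cluster 4 of WT mice and 211, 187, 206 and 188 in AppSAA mice. In the other cells it had 121, 108, 125 and 117, and 98.5, 70.3, 77.1 and 84.6. In cluster 7 it had 172, 178, 182 and 168, and 157, 149, 144 and 151. Cluster 4 was highest in each mouse, by a log2 change of 0.93 ± 0.07 over other cells and 0.28 ± 0.03 over cluster 7. Mcm6, whose promoter is printed above, stood at 240 to 267 CPM against 148 to 223 in cluster 7, a log2 change of 0.39 ± 0.03. The 20 licensing genes had a median of 0.20 against cluster 7. Orc1, a subunit of the origin recognition complex, was past the fold above cluster 7 (1.06 ± 0.10) and Dbf4 below it (-1.35 ± 0.04).

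DNA synthesis genes had the same profile. All 30 were above the other cells, 12 past the fold, with a median of 0.96, and against cluster 7 none was past the fold and the median was -0.02. Dtl, which targets the licensing factor Cdt1 for destruction, had 118, 147, 147 and 134 CPM in WT mice and 102, 136, 136 and 126 in AppSAA mice. In cluster 7 it had 73.0 to 105 and 54.6 to 77.2 CPM, and in the other cells 43.1 to 52.8 and 26.5 to 35.1. It was the highest of the list against both (1.67 ± 0.08 and 0.71 ± 0.05). Uhrf1, which maintains DNA methylation at the fork, was at 1.43 and 0.18, and Clspn, an adaptor of the replication checkpoint, at 1.46 and -0.56. Pcna, the sliding clamp, had 430 to 552 CPM in cluster 4, 185 to 342 in other cells and 495 to 690 in cluster 7.

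Repair genes of S phase were past the fold above other cells in 15 of 18 cases, with a median of 1.31. Ung, the glycosylase that removes uracil from DNA, had the largest log2 change among the 9 genes past the fold above cluster 7. It had 113, 113, 99.3 and 96.6 CPM in cluster 4 of WT mice and 101, 106, 91.3 and 90.9 in AppSAA mice. In cluster 7 it had 24.1, 37.9, 34.9 and 22.3, and 18.1, 26.6, 18.9 and 23.8. No cluster 7 value reached the cluster 4 range, and all lay below or within that of the other cells, 22.3 to 39.6. The log2 change of Ung was 1.98 ± 0.07 over cluster 7 and 1.59 ± 0.06 over other cells. Exo1, a nuclease of mismatch repair (1.62), and Brca1 (1.58), of homologous recombination, were past the fold over other cells, but stood at 0.13 and -0.36 against cluster 7. Ung was the only gene past the fold above cluster 7 with a mean of at least 10 CPM over both clusters. The other 8, named after their values were seen, were Orc1, Zfp239, Gm33023, Nhlrc1, Gm9856, Hspa1b, Fam222a and Gm50196.

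**Figure D2:**
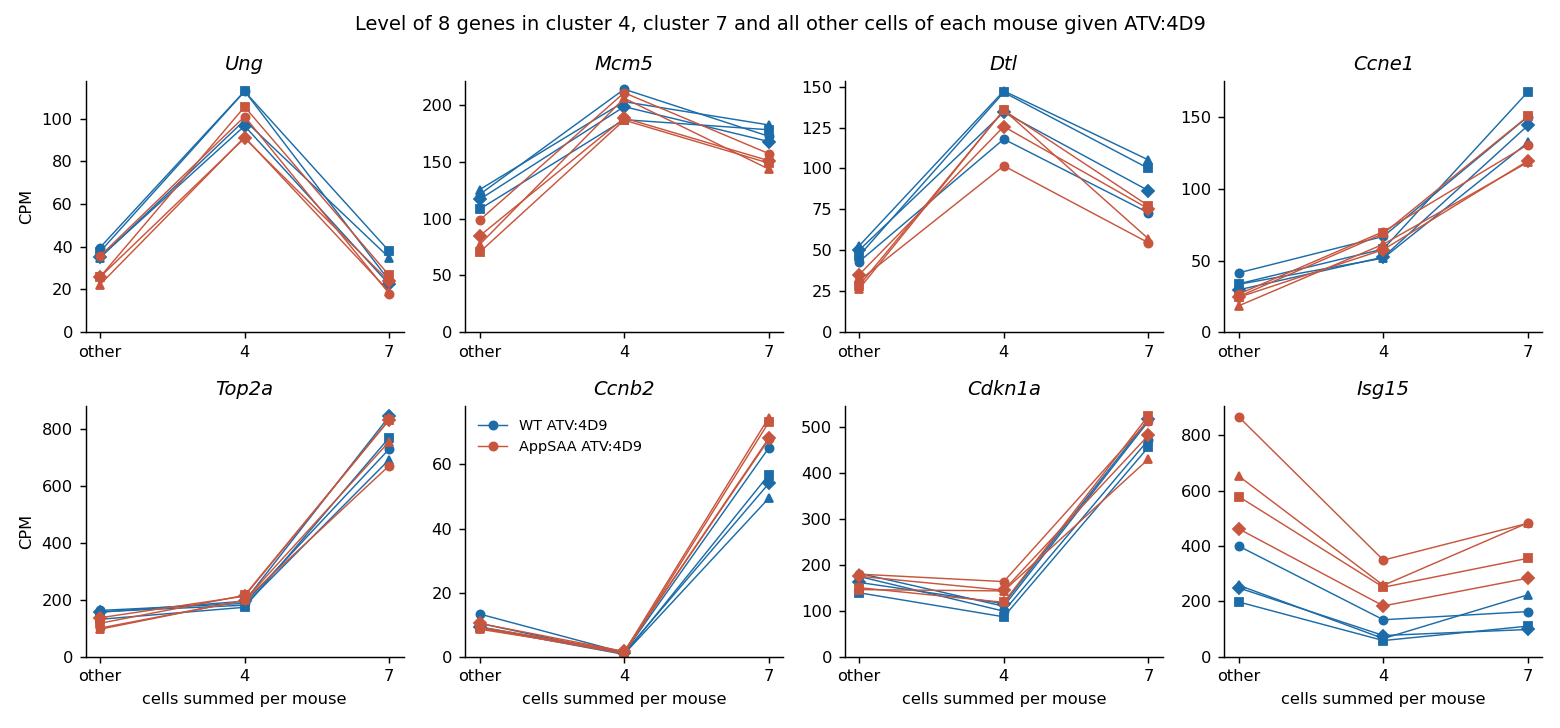
Each line is 1 mouse given ATV:4D9 (marker shape by pool, colour by genotype) and each panel 1 gene, with its CPM (linear axis from 0) in all other cells, cluster 4 and cluster 7. Ung and Dtl peak in cluster 4, Mcm5 is highest there, Ccne1, Top2a, Ccnb2 and Cdkn1a are highest in cluster 7, and Isg15 is lowest in cluster 4 in every mouse.

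Among the G1/S regulators the pattern was divided. Against other cells 18 of 20 were positive and 3 past the fold, namely Ccne2 (1.42 ± 0.09), E2f1 (1.23 ± 0.06) and E2f2 (1.13 ± 0.08). E2f1, an activator, had 139 to 174 CPM in cluster 4, 43.9 to 84.1 in other cells and 86.8 to 144 in cluster 7, a log2 change of 0.37 ± 0.04 over the last. The repressors E2f7 and E2f8, which are made later in S phase, were past the fold below cluster 7 (both -1.49). Ccne1, cyclin E1, had 66.8, 58.1, 51.7 and 52.4 CPM in WT mice and 70.2, 68.9, 61.4 and 57.6 in AppSAA mice. In cluster 7 it had 132 to 168 and 119 to 151 CPM, above cluster 4 in every mouse (-1.22 ± 0.05). Ccnd1, the cyclin that drives G1, did not separate cluster 4 from other cells (0.01 ± 0.03) and was 0.40 ± 0.03 above cluster 7.

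Nucleotide synthesis genes were all positive against other cells (17 of 17, 3 past the fold, median 0.51). Dut (1.21), which keeps uracil out of DNA, and Tk1 (1.13), which salvages thymidine, were among those past the fold. Rrm2, the regulated subunit of ribonucleotide reductase, was the exception against cluster 7. It had 37.9 to 75.0 CPM in cluster 4 and 202 to 280 in cluster 7 (-2.22 ± 0.06), with no overlap. The median of the list against cluster 7 was 0.02.

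**Figure D3:**
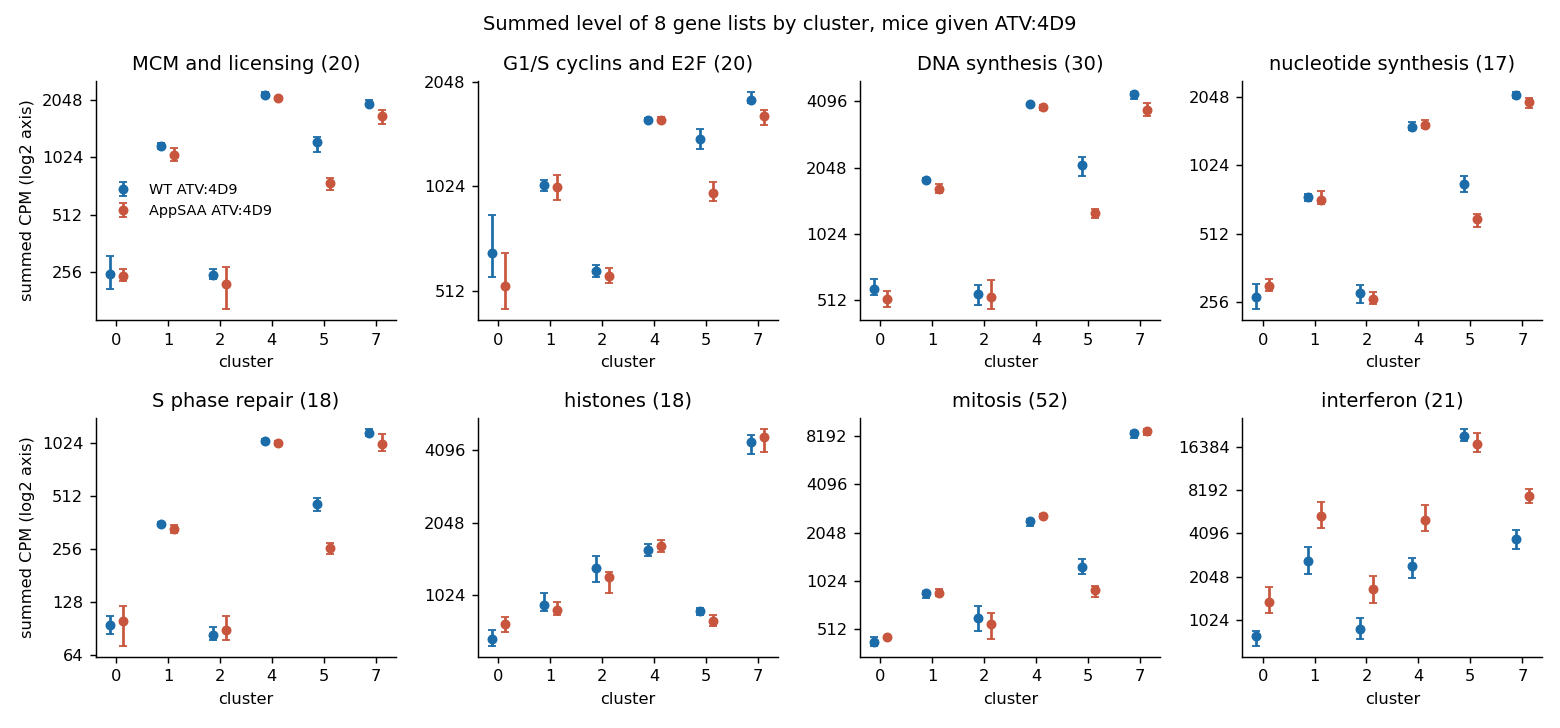
Summed CPM of the members of 8 gene lists (list size in the title) on a log2 axis in the clusters 0, 1, 2, 4, 5 and 7 of mice given ATV:4D9, as mean and full range over mice of a group with at least 20 cells in the cluster. Licensing is highest in cluster 4 (2167 ± 66.5 CPM in WT mice, 1948 ± 75.2 in cluster 7), histones and mitosis are highest in cluster 7, and interferon is highest in cluster 5.

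Genes of mitosis were where cluster 4 fell short of cluster 7. Of 52, 48 were past the fold below cluster 7 and none above (median -2.08). Their summed level was 2421 CPM ± 106 (SD, n = 4) in WT and 2602 ± 84.5 in AppSAA mice, against 8565 ± 423 and 8773 ± 358 in cluster 7. It was 897 ± 63.4 and 798 ± 66.6 in the cells outside both clusters, so cluster 4 was intermediate. Cenpa, the centromeric histone, had between 0.832 and 1.93 CPM in cluster 4 and between 61.6 and 132 in cluster 7 (log2 change -6.06 ± 0.07). Ccnb2, a mitotic cyclin, had 1.29, 0.742, 0.867 and 1.24 CPM in WT mice and 1.63, 0.951, 1.497 and 1.66 in AppSAA mice, against 49.5 to 74.6 in cluster 7 (-5.65 ± 0.07). Both were near 0 in every mouse. Ube2c, the ubiquitin-conjugating enzyme of the anaphase-promoting complex (-5.22), Plk1, a mitotic kinase (-4.30), Aspm (-3.99), Nusap1 (-3.85) and Hmmr (-3.79), all of the spindle, followed, with Mxd3 (-4.51), Prr11 (-4.10) and the histone gene Hist1h2ab (-3.96).

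Top2a (chromosome 11, 98992943 to 99024189) was less extreme. It had 188, 174, 182 and 196 CPM in cluster 4 of WT mice and 199, 216, 199 and 213 in AppSAA mice, against 673 to 846 in cluster 7 (-1.98 ± 0.03). In all other cells it had 132 to 163 and 97.1 to 137 CPM. Those other cells include cluster 7, and against the cells outside both clusters the log2 change of Top2a was 2.98 and that of Mki67, a marker of all cycling phases, 3.80. The 4 members of the list that were not past the fold below cluster 7 were Hmgb2 (-0.91), Bub3 (-0.77), Mad2l1 (-0.68) and Pttg1 (-0.22). Mad2l1, of the spindle checkpoint, was the only mitosis gene past the fold above all other cells (1.08).

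The baseline mattered most for these genes. Against the cells outside clusters 4 and 7, 504 of 12582 genes were higher (4.01%) and 187 lower (1.49%), and 44 of 52 mitosis genes were past the fold higher (median 2.22). Cenpa stayed below even there (-0.87), while Ube2c was at 1.00. Licensing had 14 of 20 past the fold higher (median 1.08), DNA synthesis 22 of 30 (1.28) and repair 17 of 18 (1.91). The G1/S regulators had 8 of 20 (0.90), among them Ccne1 (2.55), E2f7 (3.79) and E2f8 (3.36). Nucleotide synthesis had 7 of 17 (0.83), among them Rrm2 (3.16). Of the 191 genes lower than all other cells, 156 were also past the fold lower against this baseline and 12 were higher.

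**Figure D4:**
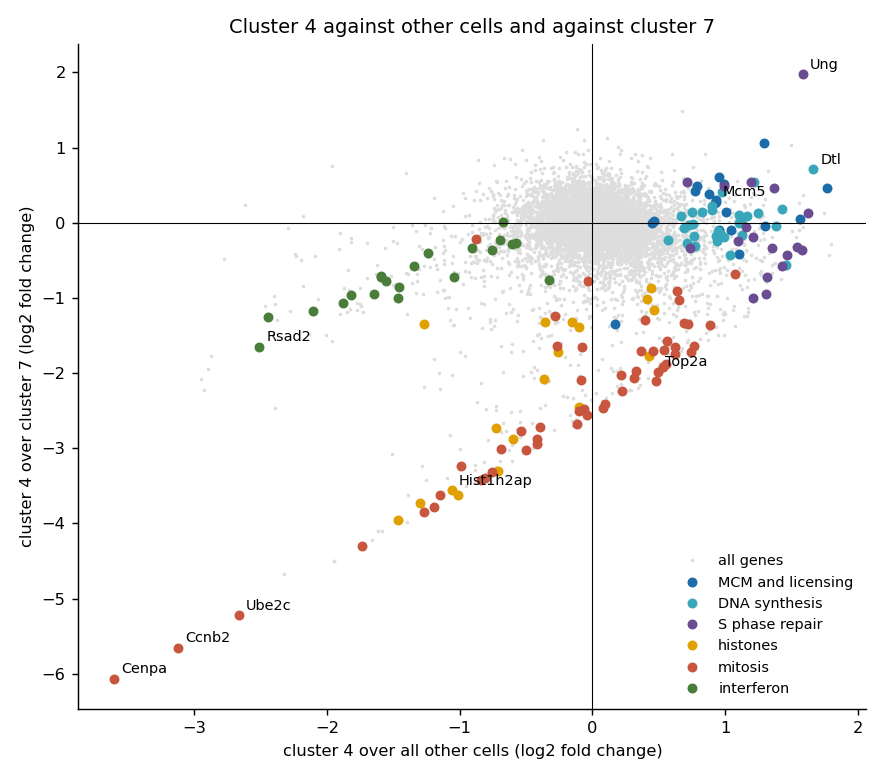
Each point is a gene in mice given ATV:4D9, with the log2 fold change of cluster 4 over all other cells on the x axis and over cluster 7 on the y axis, and 6 gene lists in colour. Licensing, DNA synthesis and repair genes lie right of 0 and mostly near 0 on the y axis, most mitosis and histone genes lie far below 0 down to Cenpa at -6.06, and interferon genes lie to the left.

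Histone genes followed the mitosis genes. Of 18 replication histones and variants, 17 were past the fold below cluster 7 (median -1.92) and 4 below the other cells (median -0.36). Against the cells outside clusters 4 and 7 the list turned, with 9 past the fold higher, 1 lower and a median of 1.02. Hist1h2ap had 31.8, 18.6, 83.1 and 17.1 CPM in cluster 4 of WT mice and 41.5, 22.5, 84.2 and 21.8 in AppSAA mice. Pool 3 was the highest in both genotypes and also in cluster 7, at 837 and 943 CPM against 232 to 437 in the others. The log2 change of Hist1h2ap was -3.56 ± 0.04 against cluster 7. H2afz, a variant made throughout the cycle, had the highest level of the list, 1091 to 1314 CPM against 2107 to 2512 (-1.01 ± 0.02). The family's near-identical copies can share reads. How fully the library kit captures histone transcripts was not tested.

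Inhibitors of cyclin-dependent kinases and p53 targets were mostly below cluster 7. Of 18 tested, 6 were past the fold lower and none higher (median -0.53). Cdkn1a (p21) had 99.3, 87.1, 110 and 116 CPM in WT mice and 164, 119, 143 and 145 in AppSAA mice, against 430 to 525 in cluster 7 (-2.04 ± 0.06). Cdkn2d (-2.89), Cdkn2c (-1.98), Cdkn2a (-1.96), the p53 target Phlda3 (-3.08) and Ccng2 (-1.27) were the others. Against all other cells only Phlda3 was past the fold (-1.51), and the median of 20 was -0.36. Against the cells outside clusters 4 and 7, Phlda3 was at -0.83 and not past the fold, and Cdkn2c (1.67) and Cdkn2a (1.26) were past the fold higher. Trp53 itself was at 0.25 ± 0.03 over other cells and at 0.00 against cluster 7. Cdkn1b (p27) was at -0.36 and -0.68.

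Against the other cells and cluster 7 of ATV:4D9 mice, homeostatic genes were little different. No gene of 18 in the list was past the fold against either, with medians of 0.03 and 0.21. The list summed to 55496 ± 4217 CPM (SD, n = 4) in cluster 4 of WT ATV:4D9 mice. Outside clusters 4 and 7 it was 56929 ± 5228 in those mice and 95029 ± 6894 in WT ATV:ISO mice. In AppSAA mice the same sums were 50174 ± 3321, 50204 ± 5102 and 70543 ± 5379 CPM. P2ry12, the purinergic receptor of resting microglia, had 957, 1234, 1084 and 964 CPM in WT mice and 518, 905, 767 and 838 in AppSAA mice (0.06 ± 0.02 over other cells). Trem2, the antibody's target, was at -0.26 ± 0.05 and 0.13 ± 0.02. Tfrc, whose locus carries the human TfR knock-in, was at 0.39 ± 0.05 and 0.27 ± 0.05. No gene was past the fold in either direction among the lists of glycolysis, nuclear and mitochondrial respiratory genes, the citric acid cycle, Myc and nucleolar genes, chaperones, immediate early genes, NF-kB targets and MHC class II, with medians of -0.62 to 0.12 over other cells and -0.05 to 0.31 over cluster 7. These baselines are cells of ATV:4D9 mice. Glycolysis genes summed to 6263 ± 723 CPM (SD, n = 4) in cluster 4 of WT ATV:4D9 mice. Outside clusters 4 and 7 of WT ATV:ISO mice they summed to 2638 ± 205. The same pair was 11046 ± 526 and 7080 ± 290 for nuclear respiratory genes. For Myc and nucleolar genes it was 5229 ± 165 and 2129 ± 112.5. Immediate early genes went the other way, with 11826 ± 1212 and 18040 ± 1302. Of cholesterol synthesis 1 of 19 was lower than other cells. Tubulins and chromatin proteins had 7 of 21 past the fold below cluster 7 (median -0.63) and a median of 0.31 over other cells.

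Genes of disease-associated microglia (DAM), the state seen around plaques, were below the other cells, which include clusters of such microglia. All 30 had a negative log2 change (median -0.46) and 7 were past the fold, Gpnmb (-2.62), Spp1 (-2.24), Igf1 (-2.23), Fabp5 (-1.90), Apoe (-1.56), Lgals3 (-1.36) and Axl (-1.19). Apoe, the lipid carrier, had 411, 423, 1050 and 796 CPM in cluster 4 of WT mice against 632 to 1252 in their other cells. In AppSAA mice it had 701, 587, 1497 and 1209 against 3240, 6022, 7723 and 5082, so the gap was larger in the AppSAA mice. None of the DAM genes was past the fold against cluster 7 (median -0.03). The list summed to 36573 ± 1603 CPM (SD, n = 4) in cluster 4 of WT ATV:4D9 mice. Outside clusters 4 and 7 it was 42784 ± 1980 in those mice and 32657 ± 682 in WT ATV:ISO mice. In AppSAA mice the same 3 sums were 43026 ± 1565, 60262 ± 3812 and 67528 ± 3201 CPM.

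Interferon-stimulated genes were the lowest list against other cells. All 21 were negative, 14 past the fold, with a median of -1.46. Rsad2, an antiviral enzyme, had 13.4, 6.29, 10.4 and 10.9 CPM in WT mice and 37.8, 17.98, 24.5 and 27.9 in AppSAA mice. In the other cells it had 34.1 to 86.3 and 120 to 154 (-2.51 ± 0.07). Iigp1 (-2.90), Slfn5 (-2.78), Ifi211 (-2.47), Ifit1 (-2.45), the chemokines Ccl5 (-2.40) and Cxcl13 (-2.39) and the activation marker Cd69 (-2.39) were, with Gpnmb and the mitotic Ube2c (-2.67), the further genes with the largest falls. Cluster 5, whose cells lead in interferon genes, is among the other cells. In cluster 1, which has licensing genes at 1139 to 1212 CPM in WT mice, the interferon sum was 2617 ± 475 CPM against 2432 ± 305 in cluster 4, and 5357 ± 1013 against 5025 ± 970 in AppSAA mice, with overlapping ranges. In mice given ATV:ISO the interferon sum outside clusters 4 and 7 was below that of cluster 4 under ATV:4D9. It was 857 ± 60.4 CPM in WT and 1311 ± 88.7 in AppSAA mice. Against cluster 7, 5 of 21 genes were past the fold lower (median -0.73).

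The cluster was not uniform. In the coarser clustering (resolution 0.2), 86.0% of its cells fell in the coarser cluster 4, together with 99.6% of cluster 7, and 13.8% in the coarser cluster 2. Per mouse, Top2a was 215 CPM ± 18.2 (SD, n = 8) in the former cells and 69.3 ± 12.03 in the latter, and Mki67 166 ± 23.7 and 32.0 ± 9.22. Mcm5 differed less, 203 ± 9.44 against 172 ± 18.2, as did Ung, 104 ± 9.42 against 84.5 ± 5.32. The mitosis list summed to 2675 ± 151 and 1432 ± 89.6 CPM and licensing to 2172 ± 63.0 and 1836 ± 73.0. All were higher in the former in 8 of 8 mice. These cells were also deeper, with medians of 18057 UMIs ± 2017 and 15873 ± 2121, and the part of depth in the difference was not tested.

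The few cells of cluster 4 in mice without ATV:4D9 were summed over the 4 mice of a group, without a test. There were 7 cells in WT ATV:ISO mice, 57 in AppSAA ATV:ISO mice and 35 in AppSAA 4D9 mice. Ung had 92.5 CPM (16 UMIs, exact Poisson 95% interval 52.9 to 150), 102 (86.0 to 121) and 76.4 (58.3 to 98.3), beside 105 and 96.8 in WT and AppSAA mice given ATV:4D9. Cluster 7 of the same 3 groups had 7.61 (2.07 to 19.5), 3.84 (2.10 to 6.44) and 4.85 (2.77 to 7.88) CPM of Ung. Mcm5 had 133 (84.3 to 199), 162 (141 to 185) and 157 (130 to 187) CPM, beside 201 and 197 under ATV:4D9. Top2a did not follow Mcm5, with 260 (190 to 348), 158 (137 to 180) and 220 (189 to 256) CPM beside 185 and 208 under ATV:4D9. Mki67 had 75.1 (40.01 to 128), 130.3 (112 to 151) and 247 (213 to 284) CPM beside 136 and 159. The intervals cover counting error only. In cluster 7, Mcm5 was at 99.0, 59.5 and 61.0 CPM without ATV:4D9 and at 174 and 151 with it. Ung was higher in cluster 4 than in cluster 7 in all 5 groups.

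The genotype contrast within cluster 4 asked what differed between AppSAA and WT mice in these cells under ATV:4D9. Of 12455 genes, 176 were higher in AppSAA mice (1.41%) and 9 lower (0.0723%), by edgeR's quasi-likelihood test at an adjusted p under 0.05, with a median log2 change of -0.01. The 2 groups of mice did not overlap in 178 of these 185 genes, and in 785 of all 12455 (6.3%). With the pool as a block, which the shared pools warrant, 753 were higher (6.05%) and 387 lower (3.11%), and they included all 185. The count of higher genes was 105 without WT mouse 2 and 111 without AppSAA mouse 3. The count of lower genes was 21 without WT mouse 1, 1 without WT mouse 2, 5 without WT mouse 3 or AppSAA mouse 3, and 18 without AppSAA mouse 4. Of the 185 genes, 175 were also called with the same sign in the other cells of these mice. There 790 of 13391 genes were higher and 280 lower.

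Interferon-stimulated genes were higher in AppSAA mice as a whole list, 21 of 21 called, with a median log2 change of 1.49. Ifi27l2a, an interferon-induced gene, had 64.7, 29.99, 39.8 and 53.5 CPM in WT mice and 212, 238, 264 and 171 in AppSAA mice, with no overlap (2.29 ± 0.22, SE, adjusted p = 0.00027). Isg15, a ubiquitin-like modifier, had 134, 58.6, 65.8 and 76.9, and 349, 251, 258 and 184 (1.71 ± 0.27, adjusted p = 0.00579). Oasl2 (1.86), Ifi207 (1.93), Ifi204 (1.74), Ifi209 (1.70) and the MHC class I genes H2-Q6 (1.89) and H2-Q7 (1.85), whose close copies can share reads, were among the 10 largest. Ch25h, which makes 25-hydroxycholesterol and is interferon-induced, was at 2.08 ± 0.20. Ass1, of arginine synthesis, was at 1.87 ± 0.32, with AppSAA mouse 1 apart at 72.2 CPM from 27.0 to 34.6 in the others. Cxcl10 had the highest adjusted p of the list (0.95, adjusted p = 0.0479), and its call was lost with DESeq2 (0.0569), with limma-voom (0.0695) and without any WT mouse or without AppSAA mouse 3 or 4 (adjusted p = 0.0665 to 0.199).

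Of the DAM list, 7 of 30 were called higher, where 1.41% of all genes were, and all 30 had a positive log2 change (median 0.48). In the other cells of these mice 23 of 30 were called higher, with a median of 0.79. With the pool as a block 25 were called in cluster 4, where 6.05% of all genes were called higher. Axl, a receptor in the uptake of dying cells, had 20.1, 12.8, 17.4 and 19.0 CPM in WT mice and 48.2, 49.7, 61.7 and 47.7 in AppSAA mice (1.64 ± 0.14, adjusted p = 0.000263). Clec7a (1.23), Lilrb4a (0.86), Cd52 (0.81) and Cst7 (0.68) were called in each fit that left out 1 mouse. Itgax (0.69) lost its call without WT mouse 1, 2 or 3 or AppSAA mouse 1, 3 or 4 (adjusted p = 0.0520 to 0.128), and B2m (0.49) without WT mouse 2, 3 or 4 or AppSAA mouse 3 (0.0596 to 0.106). Apoe was at 0.64 ± 0.31 with overlapping mice (adjusted p = 0.593, and 5.72e-07 with the pool as a block). In both genotypes the mice of pools 3 and 4 were above those of pools 1 and 2.

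The cell cycle lists held few genotype calls without the block, in cells that were placed in the cluster by such genes, which can hold their levels alike between genotypes. None was called among licensing, G1/S, DNA synthesis, nucleotide synthesis, repair and mitosis genes, with medians of 0.01 to 0.25. Of the histones, Hist1h1b was called (1.06 ± 0.23, adjusted p = 0.0333), a call lost without WT mouse 2, 3 or 4 or AppSAA mouse 1 or 3 (0.0729 to 0.103). The mitosis list was positive in 51 of 52 genes (median 0.25), and 26 of 52 were called higher with the pool as a block, where 6.05% of all genes were. Mki67 had 126, 126, 146 and 145 CPM in WT mice and 133, 164, 169 and 173 in AppSAA mice (0.30 ± 0.09, adjusted p = 0.140, and 0.000717 with the block). Top2a was at 0.24 ± 0.08 (adjusted p = 0.294, and 0.00503 with the block) and Cdkn1a at 0.55 ± 0.13 (adjusted p = 0.0544, and 2.23e-05 with the block). With the block, 0 were called of licensing and of DNA synthesis, 3 of 20 of G1/S, 3 of 17 of nucleotide synthesis, 2 of 18 of repair and 6 of 18 of histones, all higher. MHC class II went from 0 to 5 of 7 called with the block, and homeostatic genes from 0 to 6 of 18 lower, P2ry12 among them (-0.43, adjusted p = 0.00072). NF-kB targets went from 1 to 14 of 20 higher and glycolysis from 0 to 10 of 19.

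The count of genes lower in AppSAA mice depended on the fit, with 9 without the block, 35 with DESeq2 and 387 with the pool as a block. Bank1, a signalling adaptor, had 24.5, 29.8, 30.2 and 30.2 CPM in WT mice and 16.2, 17.3, 20.6 and 21.03 in AppSAA mice (-0.54 ± 0.09, adjusted p = 0.0103), and its call held without each mouse in turn. Tmem144 (-0.54) lost its call without WT mouse 2 or 3 or AppSAA mouse 4 (adjusted p = 0.0581 to 0.0712) and Lyl1 (-0.45) without WT mouse 2 (0.0518). Cdk5r1 (-0.45) lost it without WT mouse 2, 3 or 4 or AppSAA mouse 1, 2 or 3 (0.0720 to 0.120), and Ggta1 (-0.43) without WT mouse 2 or 3 or AppSAA mouse 1, 2 or 3 (0.0800 to 0.127). With equal numbers of cells per mouse, the calls of Cdk5r1 (adjusted p = 0.0592) and Ggta1 (-0.34, adjusted p = 0.344) were lost as well.

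Whether the genotype difference in cluster 4 was that of the other cells of the same mice was tested as an interaction. The interaction is the log2 change from WT to AppSAA in cluster 4 minus that in the other cells, so a positive value can also come from a fall in the other cells alone. It was called positive for 1017 of 13143 genes (7.74%) and negative for 1223 (9.31%), by edgeR's quasi-likelihood test at an adjusted p under 0.05. The median interaction over all genes was -0.02. The share of calls that were positive was 45.4%, 57.8% with RLE size factors (1311 and 959) and 58.6% with DESeq2 (828 and 585). The other cells are a mixture whose clusters differ in share between the genotypes, and what part of the difference this mixture makes was not tested.

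Most DAM genes had a smaller genotype difference in cluster 4 than in the other cells. The clustering read DAM genes too, so their interaction is a description and no test. Of 30, 24 were called negative and 2 positive (23 and 2 against the cells outside clusters 4 and 7, where 8.09% and 6.59% of all genes were). Spp1, osteopontin, had 10.3, 12.4, 31.1 and 20.7 CPM in cluster 4 of WT mice and 37.8, 18.8, 54.7 and 33.5 in AppSAA mice. In the other cells it had 21.4, 23.1, 49.3 and 21.6, and 291, 456, 543 and 252. The log2 difference between genotypes was 1.03 in cluster 4 and 3.89 in other cells (interaction -2.76 ± 0.22). Apoe was at 0.64 and 2.75 (-2.08 ± 0.16) and Cst7 at 0.68 and 1.99 (-1.30 ± 0.07). Gpnmb (-3.37), the lipid binder Fabp5 (-2.35), the growth factor Igf1 (-2.17), Wfdc17 (-1.85), Gm1673 (-1.83), Cxcl13 (-1.49), H2-Aa (-1.38) and Ramp1 (-1.32) had the further most negative values. Of MHC class II, 6 of 8 were called negative.

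Interferon genes differed less between the classes. Their median genotype difference was 1.49 in cluster 4 and 1.34 in other cells. By interaction 4 of 21 were called positive, 3 negative and 14 not called (median 0.10). Of all genes, 7.74% were called positive and 9.31% negative. Against the cells outside both clusters 6 and 2 were called, where 6.59% and 8.09% of all genes were. The clustering read interferon genes too, so these calls are no independent test. Isg15 was at 1.71 and 1.36 (0.36 ± 0.06, adjusted p = 7.24e-05). Ifi27l2a was at 2.29 and 2.62 (-0.35 ± 0.09, adjusted p = 0.0110), a call lost without WT mouse 3 or 4 or AppSAA mouse 4 (adjusted p = 0.0517 to 0.125) and with DESeq2 (0.359).

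**Figure D5:**
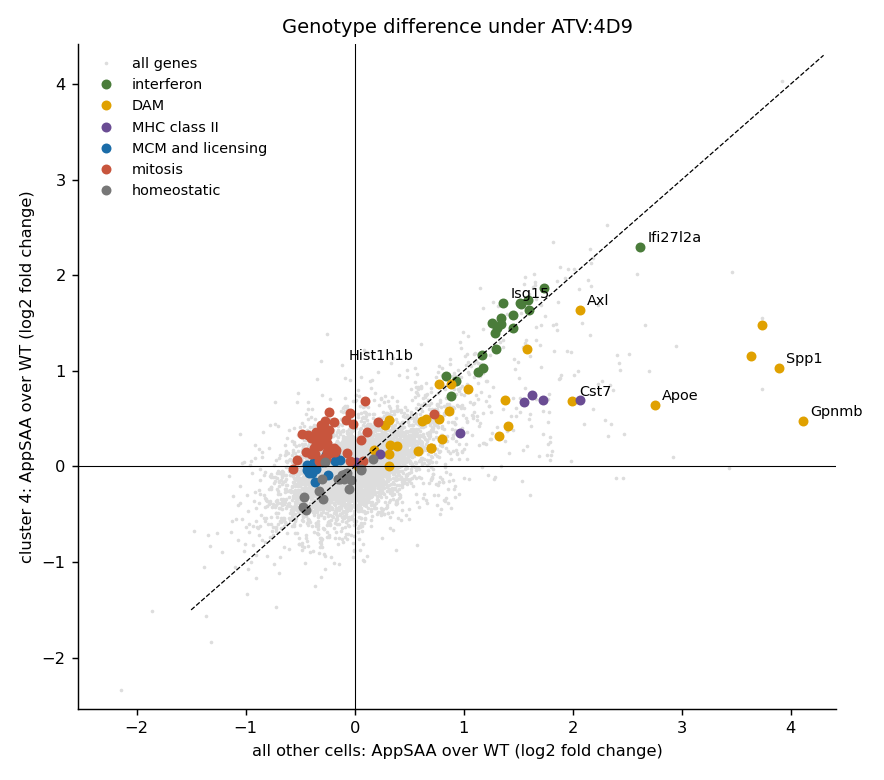
Each point is a gene, with the log2 fold change of AppSAA over WT mice under ATV:4D9 in all other cells on the x axis and in cluster 4 on the y axis, and the dashed line marks equal change. Interferon genes lie near the line, and DAM genes such as Gpnmb, Spp1 and Apoe lie far below it. Most mitosis genes lie above the line, with negative values in the other cells, which include the further cycling cluster. The median interaction of the mitosis list was 0.52 with all other cells and 0.09 with the cells outside both cycling clusters.

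For cell cycle genes the interaction is no test, because cells were placed in cluster 4 by the expression of such genes, and their values are given as a description. The median log2 change between genotypes was 0.01 in cluster 4 and -0.36 in the other cells for DNA synthesis, and 0.25 and -0.27 for mitosis. The largest positive interaction values were those of Hist1h1b (1.03 ± 0.21), Hmmr (0.82), Rrm2 (0.77), Kif23 (0.74), Esco2 (0.73), Ccna2 (0.72), Nusap1 (0.71), Pbk (0.70), Mki67 (0.69) and Eme1 (0.69). Against the cells outside clusters 4 and 7, Esco2 (-0.07), Nusap1 (-0.22), Pbk (-0.03) and Mki67 (-0.08) changed sign. With that baseline the median interaction of the mitosis list was 0.09, against 0.52 with all other cells. For DNA synthesis it was 0.32 against 0.35. Within cluster 4 the licensing genes stood at 2167 ± 66.5 CPM in WT and 2087 ± 43.1 in AppSAA mice, and in the cells outside both clusters at 1127 ± 33.8 and 795 ± 105.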

How the data were processed

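Single-cell RNA-seq of sorted microglia from 20 mice in 4 pools was analysed. The authors aligned reads with Cell Ranger 6.1.1, demultiplexed the mice of a pool by their CellPlex tags and clustered the integrated cells with Seurat, per the labels and the methods. The deposited counts are raw UMI counts per gene and cell for 19737 genes, and the deposited annotation gives each cell's mouse, group, pool and cluster, and the authors' percentage of mitochondrial UMIs. UMI totals matched the annotation in all 74758 cells. Every deposited cell was kept, no doublet caller was run, and whether doublets had been removed is not given in the sources used here.

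UMIs of a mouse's cells were added up within each cluster that held 20 or more of them. edgeR 4.0.16 in R 4.3.3 (filterByExpr, TMM, quasi-likelihood, Benjamini-Hochberg over all genes tested, called at 0.05) gave log2 fold changes. A prior count of 2 entered the log2 CPM per mouse, used for direction, and not these fold changes. Comparisons of clusters were fitted with the mouse as a term and described without p-values. The genotype fit used the 8 cluster 4 sums, and the interaction fit used 16 sums with the mouse as a term. Contrasts of genes per cell at 5000 UMIs and the split under ATV:ISO and 4D9 were added after the data were seen. Shares were compared by exact permutation tests over mice. DESeq2 1.42.0 and limma 3.58.1 were alternatives. Contrasts of antibodies within cluster 4 were not run because no mouse without ATV:4D9 had 20 cells. CPM uses all UMIs of a sum, and values of different genes are not corrected for length.

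Named genes were the up to 10 largest rises and falls past the fold, or called without overlap, with a mean of at least 10 CPM, the up to 4 most abundant of each list, and the members of the licensing, G1/S and inhibitor lists. Some genes that this rule names are not reported here. Further list members were picked as examples after their values were seen. Members and lists were chosen with earlier results of these data known. On simulated counts for the genotype fit (12358 genes), 91.0% of genes changed 1.5-fold were called, and 7.18% of calls were unchanged genes. The pools pair the mice by their labels. In cluster 4 the deviations of WT and AppSAA mice of a pool correlated at 0.527, 0.312, 0.281 and 0.370, the highest in each case. Whether mice of a group came from separate litters is not given, and p-values measure the spread between these mice. Promoters came from RefSeq on GRCm38.p6 and gene positions from GENCODE on GRCm38.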

Additional observations from a re-analysis of the deposited data

Results flagged for a closer look

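In 254 groups of 4 mice checked, 12 had a mouse far from the other 3, and chance flags about 1 in 20. The lowest AppSAA ATV:ISO share of cluster 4 was 0.274%. In cluster 4 of AppSAA ATV:4D9 mice, a high mouse stood apart for Mybl2 (23.6 CPM), Iigp1 (11.6), Ass1 (72.2), Axl (61.7) and Ccl2 (893). In WT ATV:4D9 mice, a low mouse stood apart for Orc1 (10.7 CPM), Cdkn2d (11.5), Cst7 (196) and Bank1 (24.5), and a high mouse for Hells (216) and Gapdh (2733).

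The genotype difference in cluster 4 differed from that in other cells by interaction, called positive for 1017 genes and negative for 1223. The log2 interaction was 1.03 for Hist1h1b, 0.82 for Hmmr, 0.77 for Rrm2, 0.74 for Kif23, 0.73 for Esco2, 0.72 for Ccna2, 0.71 for Nusap1, 0.70 for Pbk, 0.69 for Mki67 and 0.69 for Eme1, and for these cell cycle genes, by which cells were placed in the cluster, it is no test. It was -3.37 for Gpnmb, -2.76 for Spp1, -2.35 for Fabp5, -2.17 for Igf1, -2.08 for Apoe, -1.85 for Wfdc17, -1.83 for Gm1673, -1.49 for Cxcl13, -1.38 for H2-Aa and -1.32 for Ramp1. The clustering read the DAM genes among them too, so for those it is no test either.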

How the results depend on the processing

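Shares kept their direction and calls under the alternatives except as follows. AppSAA ATV:ISO minus WT ATV:ISO was 0.208 to 0.268 percentage points with 1 mouse left out, and it lost its call without any AppSAA mouse. AppSAA 4D9 minus AppSAA ATV:ISO was -0.0608 to -0.0156 with 1 mouse left out (the last without AppSAA 4D9 mouse 2), and turned to 0.317 with the coarser clusters and 0.233 with clusters 4 and 7 together. With pools as pairs, the replicate block, the differences of 33.4, 0.232, 15.7 (both AppSAA contrasts), -17.5 and, for the split, -10.3 could not be called (smallest p 0.125). The mitochondrial difference from other cells was -0.0403 to -0.0668 where its call was lost without 1 pool.

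Counts moved as follows. Against other cells, 113 genes were lower with equal numbers of cells, and 504 higher with the baseline outside clusters 4 and 7, where Ube2c (1.00), Hist1h2ap (1.80) and Hist1h2ae (1.12) reversed and the histone list's median turned to 1.02. Against cluster 7, 24 were higher without the filter. For genotype, 20 were lower without the filter and 35 with DESeq2, and the replicate block gave 753 higher and 387 lower. Leaving out 1 mouse gave 105 to 221 higher and 1 to 21 lower. By interaction, DESeq2 called 828 positive and 585 negative. With the baseline outside both clusters Esco2 (-0.0686), Nusap1 (-0.223), Pbk (-0.0294) and Mki67 (-0.0780) reversed. The median interaction of the mitosis list went from 0.52 to 0.09 with that baseline. The cause of these changes was not tested, beyond the fewer genes or mice that some alternatives hold. The fits on all mice with at least 20 cells in both sums and all such cluster 4 sums of every group, would hold the same 8 mice and were not run. Depth limits the mice without ATV:4D9, whose shares rest on 0 to 19 cells.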
